A study of Mus musculus with 23 samples.

Results

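Histone chaperones and replacement histones are the genes described here: the proteins that carry histones from the cytoplasm to DNA, and the histone types that cells can lay down outside DNA replication. The 32 genes were listed by name, and 32 of 32 were found by symbol among the 55573 gene identifiers of the count files. It leaves out Set itself and the ANP32 and NAP1 families. The genes fall into 8 roles. Of these genes, 9 are carriers and replication-coupled chaperones of H3-H4, 6 are genes of H3.3 deposition and 2 of centromeric H3. A further 3 are chaperones for the passage of RNA polymerase through nucleosomes, and 3 are nucleolar chaperones. The rest are 5 replacement H2A genes, 2 genes of the replacement histone H3.3 and 2 replacement linker histones.

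Newly made H3-H4 is bound by carriers such as NASP and ASF1 and handed to the CAF-1 complex behind the replication fork, or to HIRA and DAXX-ATRX, which place the variant H3.3 at any time of the cell cycle. Most histone mRNAs end in a stem-loop and exist only in S phase, whereas the replacement histones come from ordinary polyadenylated mRNAs, the only kind that a poly(A)-primed assay counts well. Embryonic stem cells (ESCs) divide fast and express these chaperones at a high level. SET, whose gene was knocked out or added as an inducible copy in this series, is itself a histone chaperone and an inhibitor of the phosphatase PP2A.

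The series measured poly(A) RNA with a 3′ tag kit (QuantSeq), which reads near the 3′ end of each transcript, in mouse ESCs kept on a layer of embryonic fibroblasts (feeders), in medium with serum and the cytokine LIF, which holds ESCs undifferentiated. R1 ESCs, a male line, were wild type (WT) or SET knockout (SET-/-, the lines KO1 and KO2) in 2 separately titled sets, with 2 WT, 2 KO1 and 2 KO2 samples in each. Set 2 also held 1 WT and 2 KO samples after 4 d of retinoic acid, an inducer of differentiation, the KO samples both titled KO1. KH2 ESCs, a line made for doxycycline-driven transgenes, held an HA-tagged SETa gene and were taken without and with doxycycline (1 μg/mL, 24 h), 2 samples each, with no transgene-free line given doxycycline. Each KO line stands for 1 line, and the sources used here do not say whether both sets used the same clones. No label says that samples of a group were separate cultures, so p-values reflect only how far these samples differ, and that spread may be technical. In bulk RNA, fewer cells of a type and less RNA per cell cannot be told apart.

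The 23 libraries made 19 samples, because libraries with the same title code were summed. Set 1 samples were the shallowest, with 806412 to 1445013 counts each. Untreated set 2 samples had 2833064 to 10217040 counts, treated ones 3904924 to 5047363 and KH2 samples 4848478 to 6472695. Levels are given as CPM (counts scaled to library size, with TMM factors), ± SD over samples, and samples are called by title code (1a to 2i). Set, the knocked-out gene, was at 976 and 1019.6 CPM in WT samples and 17.3 to 25.9 in KO samples of set 1, and at 1190.45 and 1400.4 against 272 to 562 in set 2. Retinoic acid samples held 558 CPM (WT) and 185 and 270.5 (KO), and KH2 samples held 955 and 1016 CPM without and 1120.1 and 1263 with doxycycline. A 3′ tag outside the edited part does not check the lesion itself. Among the samples, ESC markers (10 genes) summed to 3699 to 4283 CPM in WT samples of set 1 and 1735 to 2107 in its KO samples, and to 2869 to 3089 and 1759 to 2171 in those of set 2. Markers of the feeder fibroblasts (12 genes) summed to 27.6 to 42.6, 97.03 to 133, 69.4 to 94.5 and 123 to 161 CPM in the same order of groups, with 3, 1, 1 and 0 of the 12 at 0. They stood at 745 to 773 CPM after retinoic acid. In KH2 cells feeder markers stood at 688 to 751 CPM without and 414 to 505 with doxycycline. ESC markers stood there at 4029 to 4096 CPM without and 4594 to 4691 with doxycycline. The part of feeder cells or of ESC state in the values of the chaperone genes was not tested.

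In unmodified ESCs Ncl, Npm1 and Nasp were the most abundant of these transcripts in CPM, which was not divided by length because each transcript is read at its 3′ end only. Ncl, which encodes nucleolin, a binder of ribosomal RNA precursors, was highest in both R1 sets, with WT means of 6057 ± 9.27 CPM (set 1) and 4952 ± 112 (set 2, n = 2 each). Nasp, the carrier of H3-H4, varied little between WT groups, at 1587 ± 25.2 and 1655 ± 0.11 CPM in the R1 sets and 1615 ± 58.4 in KH2 cells. H3f3b, 1 of the 2 genes of H3.3, stood at 777, 852 and 887 CPM on average in these 3 groups. H3f3a, which encodes the same protein, stood at 4.70, 6.42 and 6.50 CPM and was the lowest of the 32. Reads that map to several places were not counted, and H3f3a, H2afz and Npm1 have processed pseudogenes, so the level of each is uncertain.

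**Figure D1:**
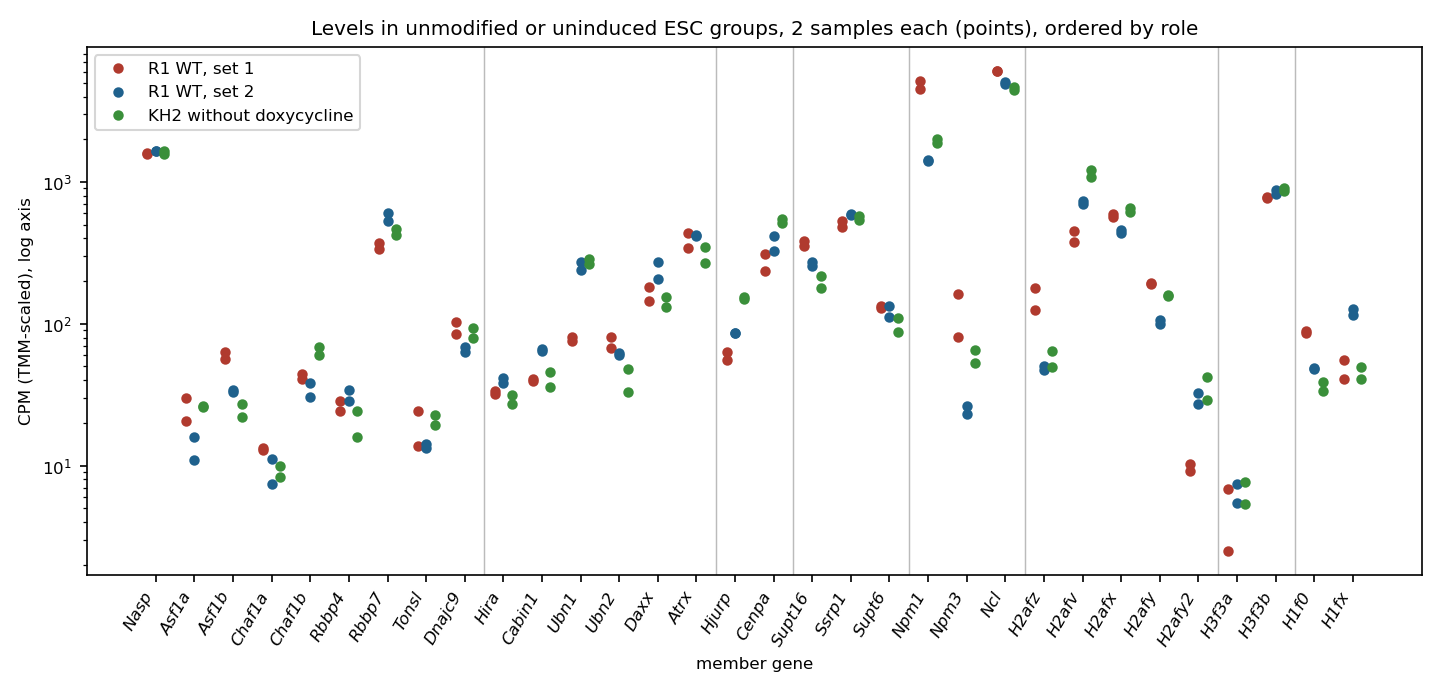
CPM (log axis) of each of the 32 genes in R1 WT of set 1, R1 WT of set 2 and KH2 cells without doxycycline, 1 point per sample and 2 samples per group, ordered by role from left to right. Ncl is at the top, near 6057 and 4952 CPM in the R1 sets, H3f3a at the bottom, and Npm1, Npm3 and H2afz lie higher in set 1 than in set 2.

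The R1 WT groups of the 2 sets differed in some genes by more than any KO effect described below. Npm3, a nucleoplasmin-family chaperone, was 4.91 times as high in set 1 WT as in set 2 WT, Npm1 (nucleophosmin) 3.44 times and H2afz, which encodes H2A.Z.1, 3.10 times. Ubn1, a subunit of the HIRA complex, stood at 0.304 times, H2afy2, which encodes macroH2A2, at 0.326 times and H1fx, which encodes the linker histone H1.10, at 0.396 times. These ratios compare 2 samples with 2 that also differ in set, and were not tested. Because of them KO is compared with WT within a set, or over both sets with set as a term of the fit.

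A minority of the list differed between SET KO and WT. Set itself had a log2 change of -5.50 in set 1 and -1.56 in set 2, each fitted alone. Its change differed between the sets (3.94, edgeR adjusted p = 2.48e-06), so the fit over both sets averages a near-complete and a partial loss of its transcript. Over both sets, 8 of 32 genes passed an adjusted p of 0.05 (edgeR quasi-likelihood test), 2 higher and 6 lower in KO. That is 25% of the list, where 18.7% of all 11950 genes tested passed (10.1% higher and 8.52% lower). The share called in either direction was near the background, with lower calls above their share and higher calls below it. Of the 32 changes, 21 were negative. The median log2 change was -0.15 over the 32 genes and -0.02 over all genes tested. Replacement H2A genes moved most, with 3 of 5 lower. H3-H4 carriers had 1 of 9 higher and 1 lower, H3.3 deposition 1 of 6 higher and 1 lower, and the linker histones 1 of 2 lower. None of the 2 centromeric genes, 3 polymerase-linked chaperones, 3 nucleolar chaperones and 2 H3.3 genes passed, and of these 10 genes Npm3 alone had an unadjusted p under 0.05. Alongside, 7 of 30 genes of DNA replication and mitosis were lower and 0 higher (median log2 -0.21), 8 of 10 ESC markers were lower, 7 of 9 endoderm markers higher and 4 of 9 tested feeder markers higher. Neural markers moved both ways, with Stmn2 (log2 -0.99) and Tubb3 (log2 -0.51) lower and Nes (log2 1.14) higher among the 3 of smallest adjusted p.

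H2afx (GRCm38 chr9:44334694-44336077, plus strand) encodes H2A.X, the H2A that is phosphorylated around DNA breaks, and its mRNA can end in a stem-loop or in a poly(A) tail. WT samples 1a and 1b held 568 and 589.9 CPM, KO1 samples 1c and 1d 371 and 347, and KO2 samples 1e and 1f 325 and 327. In set 2 the WT samples 2a and 2b held 435 and 455 CPM, KO1 samples 2c and 2d 270.4 and 264, and KO2 samples 2e and 2f 309.8 and 249. All 8 KO samples were below both WT samples of their set. The log2 change over both sets was -0.74 (SE 0.09, edgeR adjusted p = 2.06e-06), with -0.75 in set 1 and -0.69 in set 2.

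H2afv (chr11:6427229-6444443, minus strand) encodes H2A.Z.2, the close relative of H2A.Z.1, and H2afy (chr13:56073619-56136361, minus strand) encodes macroH2A1, an H2A with a large extra domain that is frequent on silent chromatin. H2afv fell from 378 and 454 CPM in set 1 WT to 267, 361, 251 and 288 in 1c to 1f, and from 699.9 and 730.1 in set 2 WT to 628, 657, 630.4 and 515 in 2c to 2f. H2afy fell from 191 and 195 CPM to 127, 143, 134 and 131 in set 1, and from 107 and 99.1 to 87.1, 79.8, 87.4 and 68.8 in set 2. Neither gene's KO range reached its WT range in either set. The log2 changes were -0.37 (SE 0.10, adjusted p = 0.0120) for H2afv and -0.44 (SE 0.10, adjusted p = 0.00237) for H2afy in the edgeR fit over both sets. The call of H2afv was lost without WT sample 1b (edgeR adjusted p = 0.104) and when each line of a set was added up to a single sample (edgeR adjusted p = 0.0618).

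The partner genes of these 2 did not pass. H2afz averaged 152 ± 38.1 CPM in WT (n = 2) and 187 ± 3.42 in KO (n = 4) of set 1, but 49.0 ± 2.41 and 37.3 ± 3.81 in set 2, with log2 changes of 0.30 and -0.38 in the separate fits. Its difference between sets had an unadjusted p of 0.0044 that did not pass adjustment over all genes (edgeR adjusted p = 0.182). As a share of the counts of both H2A.Z genes, H2afz took 21.6% to 32.1% in WT and 33.7% to 43.1% in KO of set 1, and 6.08% to 6.76% and 5.02% to 7.54% in set 2. H2afy2 took 4.58% to 5.04% of the macroH2A counts in WT and 8.04% to 18.5% in KO of set 1, and 21.6% to 23.4% and 25.6% to 28.9% in set 2. The macroH2A2 share thus lay above WT in every KO sample of both sets. H2afy2 itself had a log2 change of 1.08 in set 1 (edgeR adjusted p = 0.0898) and 0.07 in set 2 (edgeR adjusted p = 0.852). In set 1 its share rests on 11 and 12 H2afy2 counts in WT and 18 to 37 in KO. Of the last 500 exonic bases of H2afy2, 137 overlap Aifm2 on the other strand, so its counts are uncertain.

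**Figure D2:**
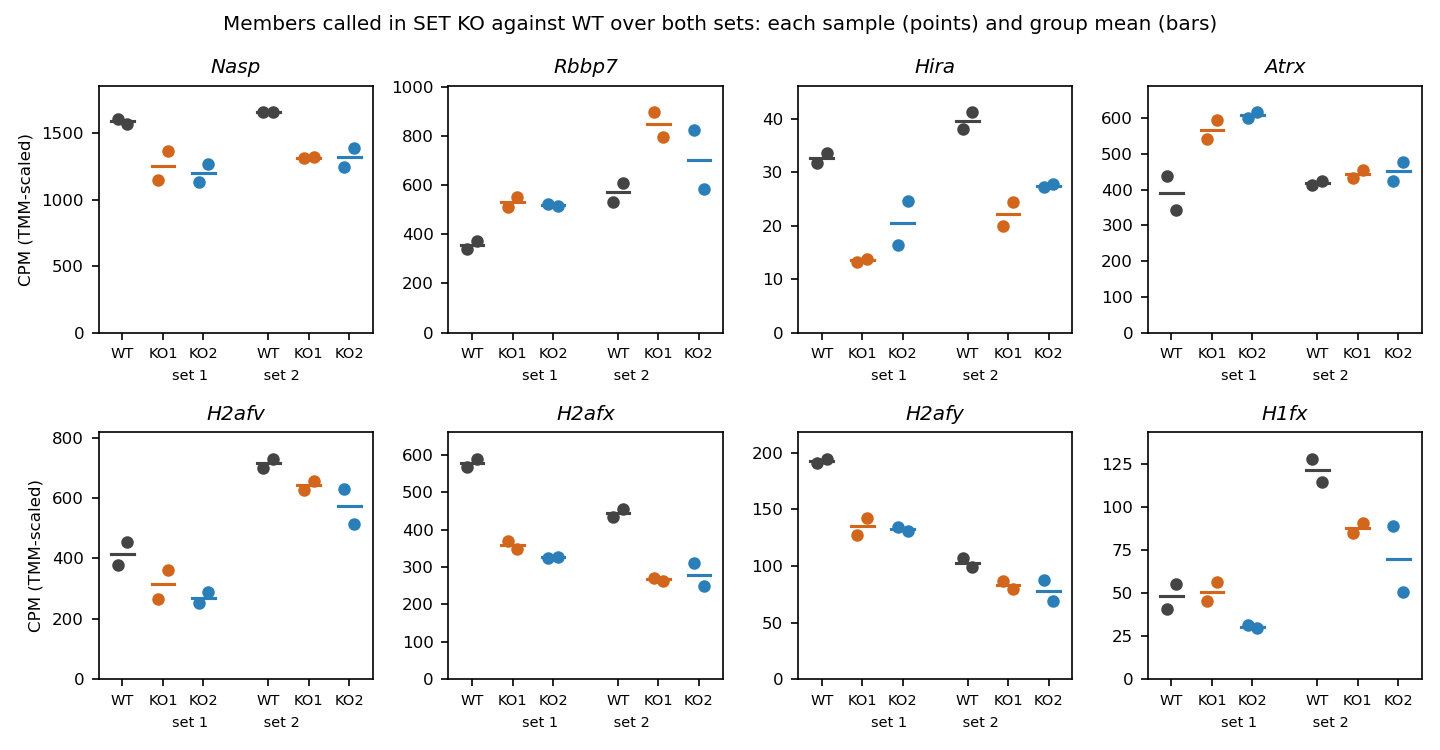
CPM of the 8 genes called in SET KO against WT over both sets, 1 point per sample with a line at the mean of the group, for WT, KO1 and KO2 of set 1 and set 2 (axes start at 0). H2afx is lower in all 8 KO samples than in either WT sample of its set, and Rbbp7 is higher in 7 of 8 than in both, the exception being sample 2f at 583 CPM.

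Among the carriers of H3-H4, Nasp (chr4:116601052-116627941, minus strand) was lower in KO. It stood at 1605 and 1569 CPM in set 1 WT, at 1144 and 1368 in KO1 and at 1130.2 and 1266 in KO2. In set 2 both WT samples held 1655 CPM, KO1 samples 1309 and 1321 and KO2 samples 1248 and 1389. No KO sample reached a WT sample, and the log2 change was -0.36 (SE 0.08, edgeR adjusted p = 0.00352).

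Rbbp7 (chrX:162760402-162779092, plus strand) encodes RBBP7 (RbAp46), a histone-binding WD-repeat protein that works with the histone acetyltransferase HAT1 and is a subunit of several chromatin complexes. It rose from 338 and 372 CPM in set 1 WT to 511, 551, 524 and 514 in 1c to 1f, and from 533 and 608 in set 2 WT to 896, 798, 824 and 583 in 2c to 2f. The log2 change was 0.49 (SE 0.10, edgeR adjusted p = 0.00133), and sample 2f lay between the WT samples. Its sister gene Rbbp4, a subunit of CAF-1, averaged 26.3 ± 2.97 CPM in WT against 25.2 ± 5.93 in KO (set 1) and 31.2 ± 3.79 against 26.3 ± 5.35 (set 2) (log2 -0.17, edgeR adjusted p = 0.504). Part of the last 500 exonic bases overlaps an exon of another gene in Rbbp4 (264 bases, Sync) and in Rbbp7 (174 bases, Txlng), and reads there that touch both genes were not counted.

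The other 7 genes of this role did not pass. Asf1b, the ASF1 paralogue of dividing cells, averaged 60.2 ± 4.70 CPM in WT against 48.5 ± 3.44 in KO (set 1) and 33.5 ± 0.55 against 29.1 ± 2.10 (set 2), lower in 8 of 8 KO samples than the WT mean (log2 -0.25, SE 0.12, edgeR adjusted p = 0.157). Dnajc9, a J-domain protein that binds H3-H4, was above the WT mean in 8 of 8 KO samples (log2 0.30, SE 0.11, edgeR adjusted p = 0.0676). Chaf1b, the middle subunit of CAF-1, was below it in 7 of 8 (log2 -0.33, adjusted p = 0.143) and Chaf1a, the large subunit, above it in 7 of 8 (log2 0.20, adjusted p = 0.514). The share of all genes with as many KO samples on the same side was not counted, and the 8 samples come from 2 lines in each of 2 sets. Asf1a (log2 -0.34, SE 0.22) and Tonsl, a reader of new H4 (log2 0.07, SE 0.18), were low and variable, under 31 CPM in every R1 sample. For Asf1a all of the last 500 exonic bases overlap Mcm9 on the other strand, and for Chaf1a 443 of them overlap Ubxn6, so their counts are uncertain.

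In H3.3 deposition, Hira (chr16:18877037-18970309, plus strand), the core subunit of the HIRA complex, had the largest negative change of the 32 genes. It stood at 31.7 and 33.6 CPM in set 1 WT, at 13.3 and 13.9 in KO1 and at 16.5 and 24.6 in KO2. In set 2 the WT samples held 38.1 and 41.3 CPM, KO1 19.9 and 24.5 and KO2 27.2 and 27.8. The groups did not overlap in either set, and the log2 change was -0.76 (SE 0.16, edgeR adjusted p = 0.00111), close to the -0.74 of H2afx. Hira passed in set 2 alone (log2 -0.66, edgeR adjusted p = 0.0149) but not in set 1 alone (log2 -0.90, edgeR adjusted p = 0.0554). Its set 1 values rest on 38 and 39 counts in WT and 12, 20, 20 and 39 in 1c to 1f. Hira shares 2778 of its 6215 exonic bases with the model Gm28539 on the same strand, none of them in the last 500.

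The other subunits of the HIRA complex did not pass. Cabin1 had a log2 change of -0.06, Ubn1 of 0.02 and Ubn2 of -0.21 (edgeR adjusted p from 0.265 to 0.905). Daxx, the chaperone that brings H3.3 to telomeres and repeats, averaged 162 ± 26.3 CPM in WT against 125 ± 19.9 in KO (set 1) and 240.1 ± 46.3 against 200.04 ± 54.7 (set 2) (log2 -0.32, SE 0.14, edgeR adjusted p = 0.119).

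Atrx (chrX:105797615-105929403, minus strand), the chromatin remodeller that partners DAXX, was higher in KO over both sets (log2 0.32, SE 0.10, edgeR adjusted p = 0.0320). WT samples of set 1 held 439 and 344 CPM, and 1c to 1f held 541, 594, 600.5 and 616. WT samples of set 2 held 414 and 424 CPM, and 2c to 2f held 434, 456, 424 and 479, so the groups lay well apart in set 1 and by less than 1 CPM in set 2. The change was 0.59 in set 1 (edgeR adjusted p = 0.0164) and 0.11 in set 2 (edgeR adjusted p = 0.570), and the difference between sets did not pass (-0.49, unadjusted p = 0.011, edgeR adjusted p = 0.270). The call over both sets was lost without 1a, 1b, 1e or 1f (edgeR adjusted p from 0.0562 to 0.189) and with sums per line and set (0.156).

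The linker histone genes differed from each other. H1fx (chr6:87980421-87981637, minus strand) was lower over both sets (log2 -0.49, SE 0.16, edgeR adjusted p = 0.0396), from 128 and 115 CPM in set 2 WT to 84.8, 91.0, 88.7 and 50.6 in 2c to 2f. In set 1 the WT samples held 40.9 and 55.1 CPM, KO1 45.4 and 56.1 and KO2 31.3 and 29.7, so only KO2 lay below WT there. The call was lost without any 1 of 9 samples (1b, 1e, 1f and each set 2 sample, edgeR adjusted p from 0.0521 to 0.161), in DESeq2's Wald test (adjusted p = 0.0636) and with sums per line and set (edgeR adjusted p = 0.127). H1f0, the linker histone of slowly dividing cells, averaged 87.3 ± 1.72 CPM in WT against 80.6 ± 11.8 in KO (set 1) and 48.4 ± 0.97 against 58.6 ± 21.3 (set 2, edgeR adjusted p = 0.761).

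No gene of the remaining roles passed over both sets. Cenpa, which encodes the centromeric H3, had a log2 change of -0.05 (SE 0.10) and Hjurp, its chaperone, of -0.17 (SE 0.13). Supt16 and Ssrp1, the subunits of FACT, which opens nucleosomes for polymerases, had changes of -0.21 (SE 0.10) and 0.05 (SE 0.10), and Supt6, an elongation factor that binds histones, of 0.01 (SE 0.11). All of the last 500 exonic bases of Supt16 overlap Rpgrip1 on the other strand, so its counts are uncertain. Npm1, Ncl and Npm3 had changes of -0.12, -0.14 and -0.37, with edgeR adjusted p of 0.374, 0.263 and 0.103. H3f3b had a change of 0.16 (SE 0.09, edgeR adjusted p = 0.218), and H3f3a, at 1 to 8 counts per sample in set 1, could not be tested there.

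**Figure D3:**
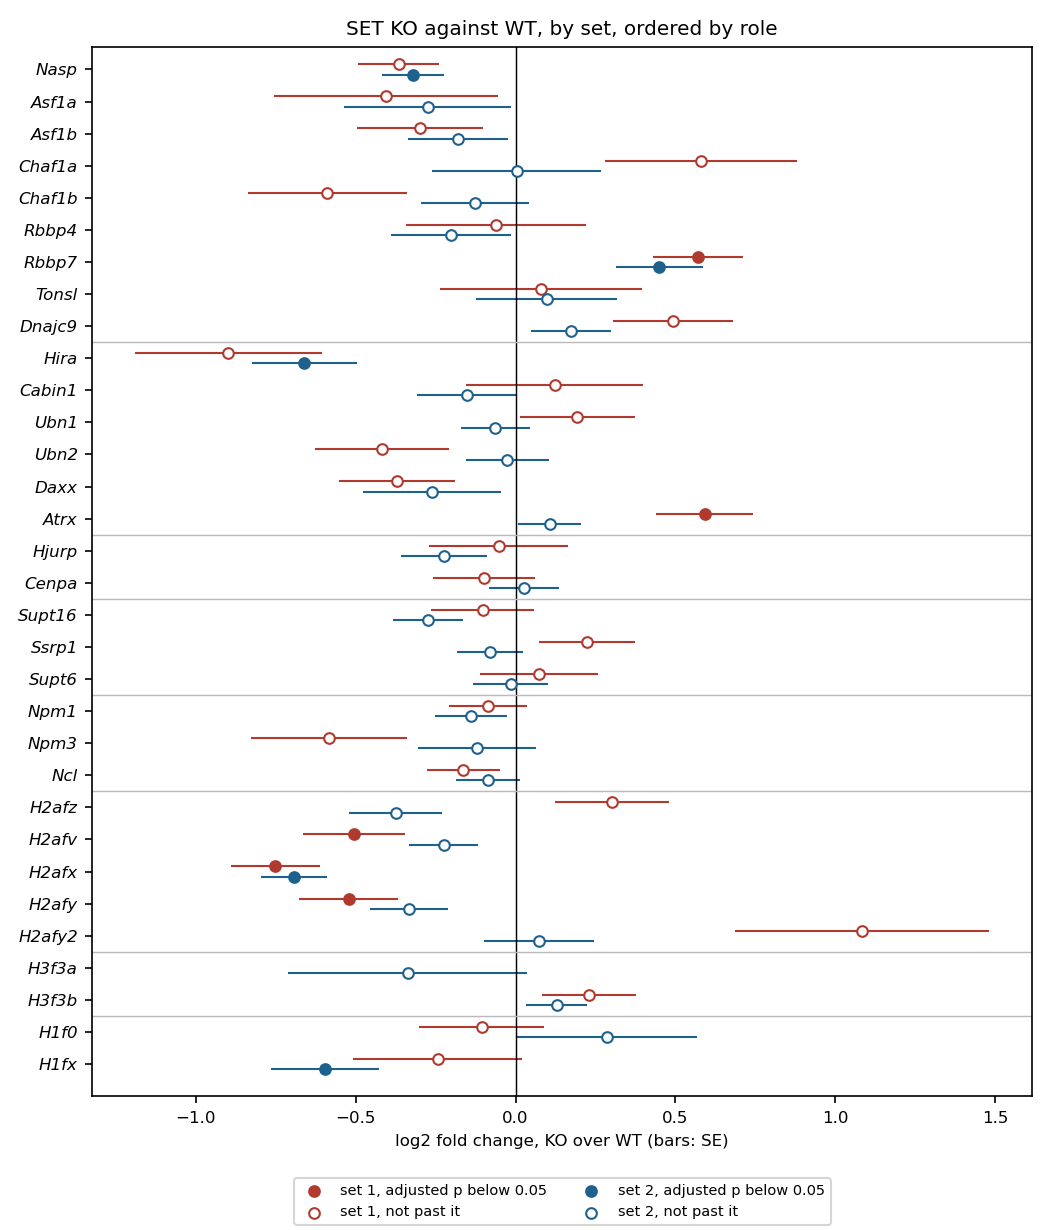
Log2 fold change of SET KO over WT for each of the 32 genes, fitted separately in set 1 and set 2 and ordered by role; points are edgeR estimates, bars are SE, filled points have an adjusted p below 0.05. H2afx sits at -0.75 and -0.69 and Rbbp7 at 0.57 and 0.45, while H2afy2, Atrx and H2afz lie apart between the sets; H3f3a has no set 1 value.

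Fitted alone, set 1 called 5 of 31 genes (Rbbp7 and Atrx higher, H2afv, H2afx and H2afy lower) where 12.3% of all genes passed (7.19% higher and 5.10% lower), and set 2 called 5 of 32 (Rbbp7 higher, Nasp, Hira, H2afx and H1fx lower) where 9.19% passed (5.64% higher and 3.55% lower). Rbbp7 and H2afx passed in both. In the test of the difference between sets 0 of 32 genes passed (edgeR, 0 also in DESeq2's Wald test), 3 had an unadjusted p under 0.05, and 0.828% of all genes passed. KO samples lay wholly above WT in set 1 for 7 of 31 genes and wholly below for 9, where 35.1% of all genes were apart in either direction. In set 2 these numbers were 2 and 10 of 32, where 31.3% were apart. Leaving out 1 sample moved the set 1 count to between 1 (without 1e) and 7 (without 1d), with 2 without 1a and 3 without 1b or 1c. It moved the set 2 count to 1 without 2a or 2b, 2 without 2c or 2e, 3 without 2d and 10 without 2f. H2afx was called in each of these fits, in either set.

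The set 2 libraries were not alike within a title code. On the first principal component of their profiles (33.9% of the variance) the 10 untreated libraries split at the widest gap into 2 sub-batches of 5. These are called A and B here, each with 2 WT and 3 KO libraries. The KO libraries came from 2d (KO1), 2e and 2f (KO2) in A, and from 2c and 2d (KO1) and 2e (KO2) in B. A difference of the KO effect between A and B is thus partly a difference between the KO lines. The titles name no such sub-batch, and the split was made from these same profiles after seeing the data. Some genes therefore separate A from B by construction, and p-values within or between sub-batches are descriptive only. Libraries sharing a title code differed by a chi-square per degree of freedom of 4.94 to 9.76 over genes, whereas the closest libraries of different codes in the same group differed by 1.84 to 3.19. Samples 2a, 2b, 2d and 2e sum a library of each sub-batch, 2b mostly from A (7941952 against 2275088 counts), while 2c is 1 library of B and 2f, the KO sample in which Rbbp7 was not raised, 1 library of A.

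Rbbp7 passed the KO test in B and not in A. In A it stood at 515 to 603 CPM in WT and 512 to 622 in KO (log2 0.04, edgeR adjusted p = 0.923), and in B at 539 to 588 in WT and 891 to 914 in KO (log2 0.67, edgeR adjusted p = 7.09e-10). The difference of its KO effect between sub-batches was 0.63 (SE 0.15, edgeR adjusted p = 0.0361), the only 1 of 32 genes to pass this test, which 0.533% of all genes passed. H2afx was lower in both, at 206 to 308 CPM in KO against 450 to 457 in WT in A (log2 -0.83, edgeR adjusted p = 0.00481) and at 269 to 305 against 409 to 445 in B (log2 -0.56, edgeR adjusted p = 7.34e-07). Nasp stood at 1378 to 1398 CPM in KO against 1623 to 1653 in WT in A (log2 -0.23, edgeR adjusted p = 0.334) and at 1176 to 1301 against 1627 to 1665 in B (log2 -0.40, edgeR adjusted p = 5.36e-05). Hira passed in B (log2 -0.69, edgeR adjusted p = 0.0172) and not in A (log2 -0.48, edgeR adjusted p = 0.389), where 1 KO library reached 45.0 CPM against 41.2 to 42.1 in WT. H1f0 separated the sub-batches without overlap, at 26.9 to 42.1 CPM over all A libraries and 58.7 to 83.8 over all B libraries. Its values were among those that made the split, and the share of all genes that separate so was not counted.

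**Figure D4:**
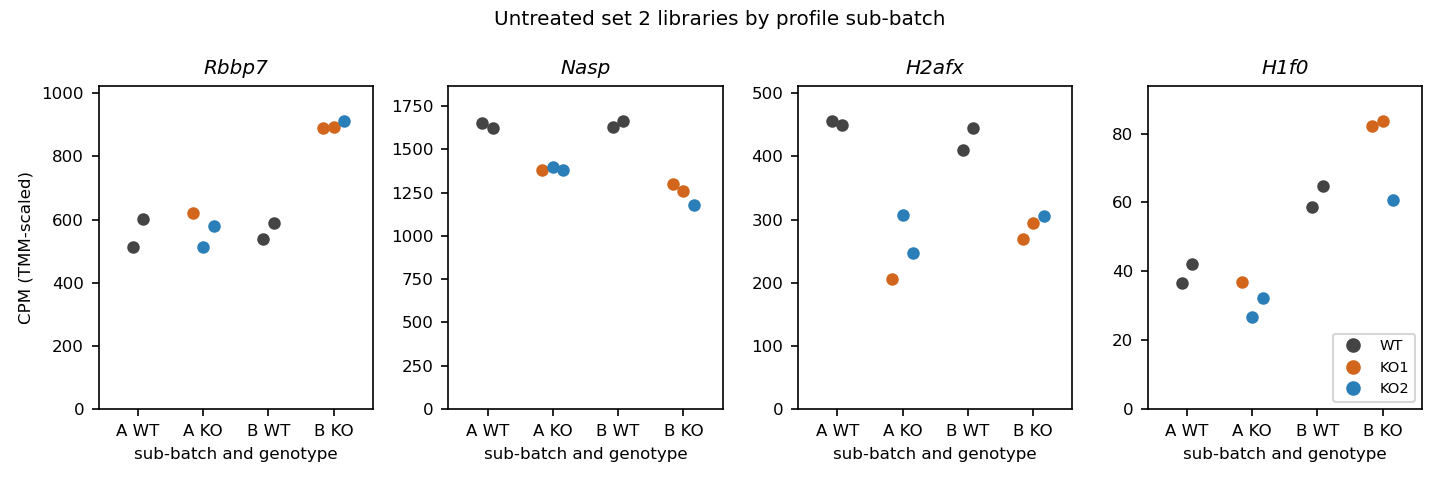
CPM of Rbbp7, Nasp, H2afx and H1f0 in each of the 10 untreated set 2 libraries (points), by sub-batch (A or B) and genotype (WT, KO1, KO2), axes from 0. Rbbp7 is raised in the KO libraries of B alone, at 891 to 914 CPM, H2afx is lower in KO in both, and H1f0 separates A from B.

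Retinoic acid moved most of the list, and mostly down. In the WT sample 24 of 32 genes passed (6 higher, 18 lower) where 47.3% of all genes passed (24.8% higher and 22.5% lower). In KO 21 passed (4 higher, 17 lower) where 55.1% passed (28.3% higher and 26.8% lower). The median log2 change of the 32 genes was -0.63 in WT and -0.58 in KO, against -0.03 and -0.01 over all genes. Lower in both were 15 genes, higher in both 4 (Ubn1, H2afy2, H3f3b and H1f0), and called in neither 6, where 19.2% of all genes were lower and 21.6% higher in both. WT had 1 treated sample, so its test assumes that this sample varies like the other groups, and the KO controls were both lines while the treated samples were titled KO1. The 2 comparisons use separate samples, in 1 fit with a shared estimate of the spread. Treated KO samples lay wholly above untreated KO samples for 5 genes and wholly below for 17, where 63.2% of all genes were apart.

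Because 15 genes fell together, their promoter windows were searched for short motifs of genes tied to the cell cycle. The motif TTTGAA, the core of the cell cycle homology region (CHR) through which many genes are held down in cells that leave the cell cycle, was searched on both strands of RefSeq promoter windows (250 bases before to 50 after the gene's start, GRCm38.p6), found for 29 of 32 genes (not Npm1, Tonsl or H2afx). It was in 6 of 13 genes lower after retinoic acid in WT and KO (46.2%), in 2 of 16 of the others (12.5%) and in 17.9% of all 32851 windows. A gene counted once if any of its windows held the motif (Daxx has 3 windows and Ssrp1 2). The share of all windows counts each window, so the 2 kinds of share are not quite alike. The capitals mark the motif (TTTGAA, or TTCAAA where it lies on the other strand), and each line reads 5′ to 3′ on the gene's own strand. A line holds up to 26 bases on each side of the motif and goes no further than the start, so most lines end before it. Where the motif lies past the start, the line holds 30 bases.
Nasp, chr4:116628050-116628107, minus strand: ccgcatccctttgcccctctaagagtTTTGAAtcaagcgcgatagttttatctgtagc
Cenpa, chr5:30666890-30666919, plus strand: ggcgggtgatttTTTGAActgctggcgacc
Hjurp, chr1:88277543-88277572, minus strand: tgcgtaaatactTTTGAAagaccctattag
Ssrp1, chr2:85037383-85037440, plus strand: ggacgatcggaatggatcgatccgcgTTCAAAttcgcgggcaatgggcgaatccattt
Ncl, chr1:86359590-86359647, minus strand: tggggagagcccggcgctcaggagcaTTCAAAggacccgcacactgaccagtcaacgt
H2afv, chr11:6444453-6444510, minus strand: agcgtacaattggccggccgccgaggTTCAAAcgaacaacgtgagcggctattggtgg
The motif starts 16 bases past the start in Cenpa and 19 past it in Hjurp. With the start as position 0, it lies at -130 in Nasp, -42 in Ssrp1, -166 in Ncl and -41 in H2afv. Ssrp1 has 2 windows with different starts, and its other match lies at -124 from the other start. The 6 sequences are shown because their genes fell in both. The remaining windows with the motif are those of Asf1b, at -14, called lower in KO only and shown because it lies closest before the start, and Ubn2, at -174.
Asf1b, chr8:83955654-83955693, plus strand: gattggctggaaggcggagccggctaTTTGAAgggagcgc
Of the other letters searched, CCAAT was in 17 of 29 genes (58.6%, against 37.4% of all windows). Any of the E2F-type words TTTCCCGC, TTTGGCGC, TTTCGCGC and TTTGCCGC was in 3 of 29 genes (10.3%, against 2.26% of all windows). Split in the same way, CCAAT was in 8 of 13 genes lower in both (61.5%) and 9 of 16 of the others (56.2%). An E2F-type word was in 2 of 13 (15.4%) and 1 of 16 (6.25%). Among the genes lower in both, Daxx (3 windows) did not hold CCAAT in all and Ssrp1 (2 windows) in none. Their CCAAT share would thus be lower if windows were counted. All words were searched on both strands, and 0 of the TTTGAA matches shared a base with another word. A match describes the letters only.

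Among H3-H4 carriers Nasp had the smallest p in both genotypes. It stood at 585 CPM in the treated WT sample 2g against 1655 in both untreated WT samples, and at 513.5 and 476 in treated KO samples 2h and 2i, below the untreated KO samples given above. The log2 change was -1.52 (SE 0.15, edgeR adjusted p = 1.71e-09) in WT and -1.45 (SE 0.10, edgeR adjusted p = 2.57e-12) in KO. Chaf1b stood at 13.6 CPM in 2g and 10.8 in both 2h and 2i, against 38.4 and 30.2 in WT and 32.5, 29.7, 27.1 and 34.4 in 2c to 2f (log2 -1.32 in WT and -1.54 in KO). Tonsl fell in both as well (log2 -1.33 and -1.32), from a mean of 13.8 CPM to 5.50 in WT and from 14.4 to 5.91 in KO, and its WT call was lost with sub-batch B controls alone (edgeR adjusted p = 0.0681).

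Other carriers gave a call in 1 genotype. Chaf1a (log2 -1.23 in WT, edgeR adjusted p = 0.026, and -0.54 in KO, edgeR adjusted p = 0.105) and Rbbp4 (log2 -0.70, edgeR adjusted p = 0.0402, and -0.36, edgeR adjusted p = 0.115) were called lower in WT only, and Asf1b in KO only (log2 -0.55, edgeR adjusted p = 0.0587, and -0.63, edgeR adjusted p = 0.00269). Rbbp7 (log2 0.51 and 0.18) and Dnajc9 (log2 0.59 and 0.22) were called higher in WT only, and Asf1a in neither. The WT calls of Chaf1a and Rbbp4 were lost with sub-batch B controls alone (log2 -0.53, edgeR adjusted p = 0.439, and edgeR adjusted p = 0.140), in DESeq2's Wald test (adjusted p = 0.116 and 0.120) and with single libraries (edgeR adjusted p = 0.0664 and 0.0789), and also without 2b for Chaf1a (edgeR adjusted p = 0.237) and without 2a for Rbbp4 (edgeR adjusted p = 0.133). Without 2a the WT call of Rbbp7 was lost (edgeR adjusted p = 0.0775), as it was with single libraries (edgeR adjusted p = 0.0770), and without 2b that of Dnajc9 was lost (edgeR adjusted p = 0.0554). None of these 6 genes passed the test of the difference between genotypes (edgeR adjusted p from 0.545 to 0.961). Rbbp7 stood at 821 CPM in 2g and at 893 and 904 in 2h and 2i, against 798 to 896 in untreated KO samples 2c to 2e, 583 in 2f and 533 and 608 in untreated WT.

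The centromere and polymerase-linked genes fell. Cenpa stood at 151 CPM in 2g and 167 and 138 in 2h and 2i, against 325 and 418 in WT and 357, 399, 388 and 359 in 2c to 2f (log2 -1.32 and -1.33). Hjurp stood at 50.3 CPM, and 49.0 and 45.8, against 86.2 and 86.4 in WT and 85.6, 76.1, 74.2 and 57.8 in 2c to 2f (log2 -0.80 and -0.66). Treated and untreated samples of each did not overlap within a genotype. Supt16 stood at 130.1 CPM in 2g and 126 and 107 in 2h and 2i, against 273 and 257 in WT and 193, 226, 208 and 242 in 2c to 2f (log2 -1.04 and -0.93). Ssrp1 stood at 429 CPM, and 373 and 346, against 594 and 586 in WT and 578, 509.5, 529 and 603 in 2c to 2f (log2 -0.48 and -0.66). Thus both FACT subunits fell in both genotypes, and Supt6 passed in KO only (log2 -0.36 in WT, edgeR adjusted p = 0.0808, and -0.40 in KO, edgeR adjusted p = 0.00494).

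All 3 nucleolar chaperones fell by more than 1 on the log2 scale in both genotypes. Npm1 stood at 568 CPM in 2g and 546 and 518 in 2h and 2i, against 1399 and 1424 in WT and 1226, 1194, 1153 and 1521 in 2c to 2f (log2 -1.33 and -1.29). Ncl stood at 1881 CPM, and 1980.5 and 1892, against 4873 and 5031 in WT and 4516, 4605, 4329 and 5091 in 2c to 2f (log2 -1.41 and -1.29). Npm3 stood at 9.95 CPM, and 11.4 and 10.5, against 26.2 and 23.1 in WT and 23.6, 20.6, 19.9 and 26.1 in 2c to 2f (log2 -1.31 and -1.05). Treated samples of these genes lay below every untreated one. Over the 12 genes with the smallest adjusted p in KO (Nasp, Ncl, Npm1, Cenpa, Supt16, Chaf1b, Atrx, Ssrp1, H2afy2, H2afz, Npm3 and Hjurp) this p ran from 2.57e-12 to 0.000135 (edgeR).

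In H3.3 deposition, Atrx, Daxx and Cabin1 fell and Ubn1 rose in both. Atrx stood at 298 CPM in 2g and 290.02 and 283 in 2h and 2i, against 414 and 424 in WT and 434, 456, 424 and 479 in 2c to 2f (log2 -0.51 and -0.68). Daxx had log2 changes of -1.06 and -0.76 and Cabin1 of -0.77 and -0.62. Ubn1 rose by 0.51 in WT (edgeR adjusted p = 0.00454) and 0.41 in KO (edgeR adjusted p = 0.0014), to 370.1 CPM in 2g, and its WT call was lost without 2b (edgeR adjusted p = 0.0808). Ubn2 was called in neither (log2 -0.08 and 0.08). Hira was called in neither (log2 -0.46, edgeR adjusted p = 0.099, and 0.23, edgeR adjusted p = 0.244), and stood at 29.3 CPM in 2g and 28.9 and 30.8 in 2h and 2i, so that the treated samples of both genotypes lay between untreated KO and untreated WT. Its difference of the retinoic acid effect was 0.69 (SE 0.28, unadjusted p = 0.0208, edgeR adjusted p = 0.320).

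The replacement histones split. H2afz stood at 23.8 CPM in 2g and 20.3 and 21.9 in 2h and 2i, against 50.7 and 47.3 in WT and 33.2, 38.6, 35.5 and 42.0 in 2c to 2f (log2 -1.05 and -0.86), and H2afv fell by 0.52 in WT and 0.40 in KO on the log2 scale. H2afy2 rose, to 66.2 CPM in 2g and 57.8 and 57.6 in 2h and 2i from 32.6 and 27.3 in WT and 35.4, 27.5, 33.3 and 27.4 in 2c to 2f (log2 1.15 and 0.87), while H2afy was called in neither (log2 0.11 and 0.16). The share of macroH2A counts taken by H2afy2 was 37.1% in 2g and 37.2% to 39.7% in 2h and 2i. H2afx fell in WT (log2 -0.47, edgeR adjusted p = 0.00926) to 325 CPM and stood at 260.3 and 263 CPM in treated KO against 249 to 309.8 in untreated KO (log2 -0.10, edgeR adjusted p = 0.439).

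H3f3b rose to 1244 CPM in 2g and 1127 and 1269 in 2h and 2i (log2 0.53 in WT, edgeR adjusted p = 0.00155, and 0.34 in KO, edgeR adjusted p = 0.00327). H1f0 rose to 87.4 CPM in 2g and 79.9 and 90.5 in 2h and 2i, with log2 changes of 0.84 and 0.55, from 49.1 and 47.7 in WT and 82.6, 66.5, 53.0 and 32.4 in 2c to 2f, ranges that overlap in KO. With KO1 alone as the untreated control the call of H1f0 in KO was lost (edgeR adjusted p = 0.427), as it was without 2i (edgeR adjusted p = 0.0574), with sub-batch B controls alone (log2 0.22, edgeR adjusted p = 0.109) and with single libraries (edgeR adjusted p = 0.0986). The WT call of H1f0 was lost with single libraries (edgeR adjusted p = 0.159), and H1f0 is a gene whose untreated level separated A from B. Without 2i the calls of Cabin1, H3f3b and Supt6 in KO were also lost (edgeR adjusted p = 0.115, 0.118 and 0.0580), and 17 genes were called. Those of Cabin1 and Supt6 were lost with sub-batch B controls alone as well (edgeR adjusted p = 0.0847 and 0.100). H1fx (log2 -0.16 and 0.03) and H3f3a (log2 -0.98 and -0.65, at 3.14 CPM in 2g) were called in neither.

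**Figure D5:**
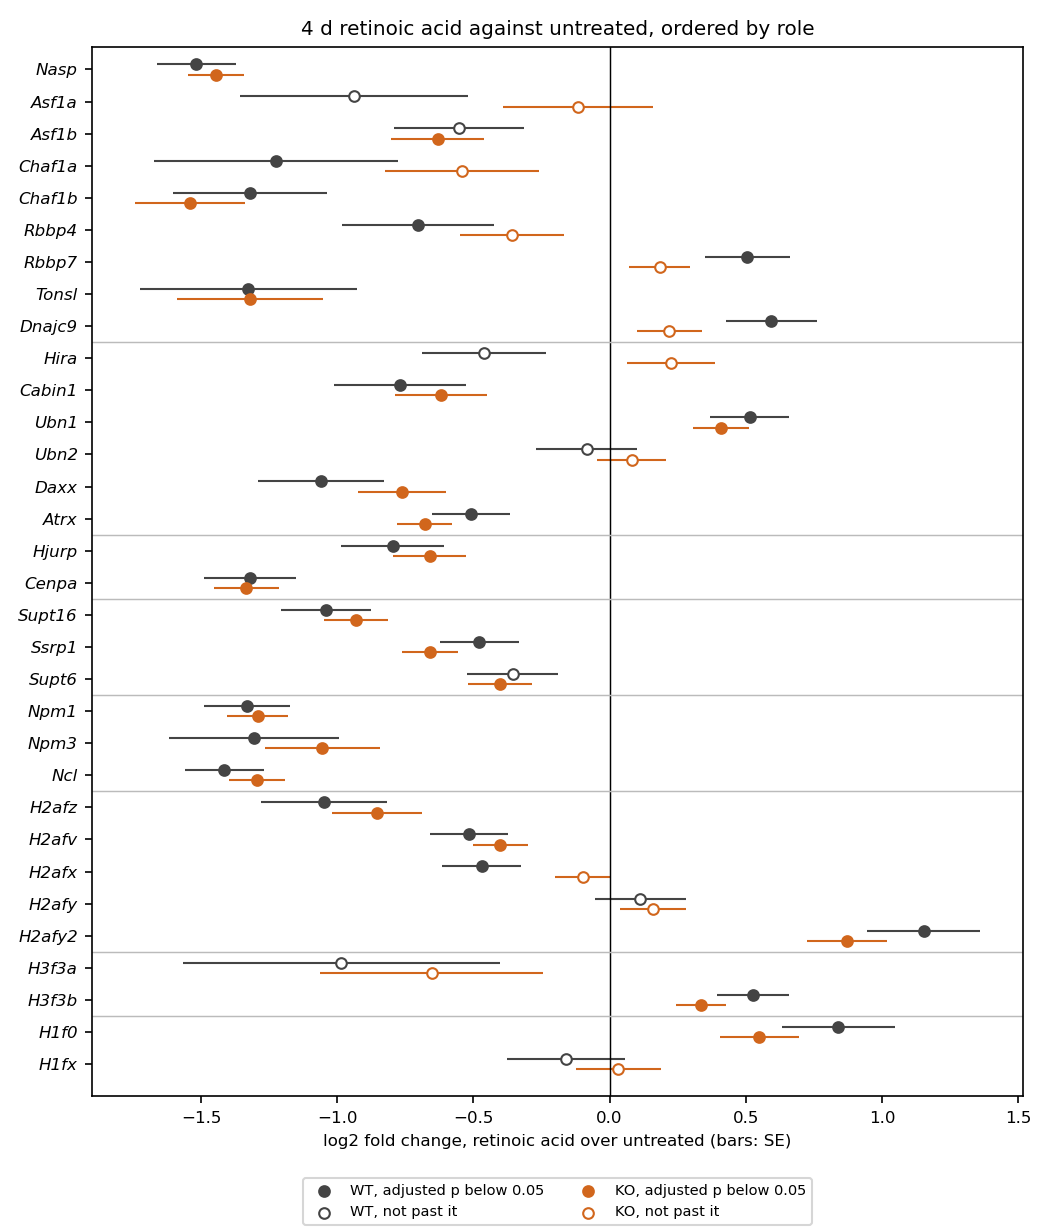
Log2 fold change after 4 d of retinoic acid for each of the 32 genes in WT (1 treated sample) and KO (2 treated samples), ordered by role; points are edgeR estimates, bars are SE, filled points have an adjusted p below 0.05. Nasp, Chaf1b, Tonsl, Cenpa and the 3 nucleolar genes sit below -1 in both genotypes, and H2afy2, at 1.15 and 0.87, lies farthest to the right.

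Genes that work around this list were called as follows after retinoic acid, where 26.8% of all genes were lower and 28.3% higher in KO, and 22.5% and 24.8% in WT. Of 30 genes of DNA replication and mitosis, 29 fell in KO and 27 in WT, with medians of -1.12 and -1.30, led in KO by Mcm3 (log2 -1.65), Mcm5 (log2 -1.65) and Ccne1 (log2 -1.51). Of 29 tested genes for histone import, acetylation and hand-over, 15 fell and 4 rose in KO and 14 fell and 2 rose in WT, among them Hat1, the acetyltransferase of new H4 (log2 -1.46 in KO), Mcm2 (log2 -1.24) and the importin gene Ipo5 (log2 -1.05). Of 13 genes for the supply of histone mRNA, 8 fell in KO, with E2f1 at -1.25, Zfp473 at -1.44 and Cpsf3 at -0.85. Of 39 tested replication-dependent histone genes, counted here only through poly(A) tags, 16 fell and 5 rose in KO, with Hist1h2bk at -2.09 and Hist3h2a and Hist1h1c at 2.58 and 1.65. In the same samples all 10 ESC markers fell and 10 of 11 tested feeder markers rose in KO. Neural markers moved both ways there, with Stmn2 at -2.17, Nes at 2.23 and Pax6 at 2.02. The part of any of these in the values of the chaperone genes was not tested.

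In KO against WT over both sets 8.52% of all genes were lower and 10.1% higher. The replication and mitosis genes, given above, had a larger share of lower calls than that. Of 29 hand-over genes 4 fell, among them Ruvbl1 (log2 -0.46), Ino80 (log2 -0.51) and Atad2 (log2 -0.39). Of 13 supply genes 1 fell, E2f2 (log2 -1.13, SE 0.21, edgeR adjusted p = 0.000421). Of 18 tested replication-dependent histone genes Hist1h2bc fell (log2 -0.87) and Hist1h3d rose (log2 0.65), and Hist3h2a did not pass (log2 -0.57, edgeR adjusted p = 0.0504).

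Among treated samples no gene of the list was called between KO and WT. In KO against WT among treated samples 0 of 32 genes passed (edgeR, 0 also in DESeq2's Wald test), 1 had an unadjusted p under 0.05, H2afx (log2 -0.33, SE 0.14, unadjusted p = 0.027, edgeR adjusted p = 0.660), and 0.396% of all genes passed. In the difference of the retinoic acid effect 0 of 32 passed in either tool, 2 had an unadjusted p under 0.05 (Hira and H2afx), and 1.09% of all genes passed. With 1 treated WT sample, simulated 2-fold changes were recovered in 54.5% of genes for KO against WT after retinoic acid, so smaller differences could go unseen. With untreated controls from sub-batch A alone H2afx passed the test of the difference (0.60, edgeR adjusted p = 0.0266), and with those from B alone Rbbp7 did (-0.56, edgeR adjusted p = 0.00924).

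None of these genes was called in KH2 cells given doxycycline for 24 h. Whether the 3′ tags count the SETa transgene was not tested, and these counts do not show that it was induced. In KH2 cells 0 of 32 passed (edgeR, 0 also in DESeq2's Wald test), 4 had an unadjusted p under 0.05, and 1.80% of all genes passed, while Set itself averaged 985 ± 43.4 CPM without and 1192 ± 101 with doxycycline and did not pass (log2 0.28, edgeR adjusted p = 0.175). The 4 were H2afz, at 49.2 and 64.7 CPM without and 37.7 and 47.2 with doxycycline (log2 -0.43, SE 0.17, edgeR adjusted p = 0.196), Ubn1 (log2 0.26, adjusted p = 0.235), Cenpa (log2 -0.25, adjusted p = 0.274) and H1fx (log2 -0.37, adjusted p = 0.276). H2afx, the most strongly called gene in KO, stood at 617.9 and 651 CPM without and 738 and 689 with doxycycline (log2 0.17, SE 0.10, edgeR adjusted p = 0.455). Hira stood at 27.1 and 31.6, and 23.2 and 33.1 CPM (log2 -0.07, SE 0.20), Nasp at 1657 and 1574, and 1633 and 1732 (log2 0.06, SE 0.10), and Rbbp7 at 425 and 466, and 425 and 415 (log2 -0.08, SE 0.11). The samples of the 2 conditions did not overlap for 6 genes above and 7 below, where 45.7% of all genes did not overlap with 2 samples against 2. Summed feeder and ESC markers also did not overlap between the 2 conditions, as given above, and their part here was not tested.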

How the data were processed

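The deposited files hold raw read counts per gene. Per the file headers, the authors made them with featureCounts 1.6.0 from the GRCm38 gene models of Ensembl 97. As run, strand is ignored and reads that map to several places or touch several genes are not counted. STAR 2.5.4b and Subread 2.0.0 on mm10 are named per the submitters' processing notes. The members and lists were chosen with earlier results of these data known.

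The 23 libraries (QuantSeq) were summed by title code to 19 samples of 806412 to 10217040 counts. At the lowest depth 1 count is worth over 1 CPM, and counting error limits genes of a few CPM. Each comparison was fitted on all genes passing filterByExpr (minimum count 10, minimum total 15) with edgeR 4.0.16 quasi-likelihood tests in R 4.3.3 (TMM, robust), Benjamini-Hochberg over all genes tested, threshold 0.05. Undifferentiated R1 samples were compared over both sets with set as a covariate and within each set; retinoic acid contrasts came from 1 fit of 9 set 2 samples by group means; KH2 was fitted alone. Fits were tested on simulated data holding known changes: 80.2% of 2-fold changes were recovered for KO against WT over both sets (11350 genes simulated), with 3.28% of calls false. For retinoic acid 49% were recovered in WT, with 11% of calls false, and 64.1% in KO, with 6.92% false. The values were 49.5% and 7.48% in set 1, 79.5% and 4.49% in set 2 and 76.6% and 8.74% in KH2. Each simulation changed a small share of the genes and held no set, sub-batch or broad shift. Far more genes were called in the real retinoic acid fits (47.3% in WT and 55.1% in KO), so these values do not describe those calls.

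Genes called in KO over both sets, in KH2, or after retinoic acid in both genotypes (there the 12 with the smallest adjusted p in KO) are given sample by sample, other members by group or call, and at most 3 genes of each surrounding list by the smallest adjusted p. Alternatives were DESeq2 1.42.0 size factors and Wald test, no low-count filter, single libraries, a replicate block, sums per line and set, KO1 alone as control, each sample left out, and, added after seeing the data, sub-batches. No block is in the main fits. Tables used Python 3.11.15, pandas 2.3.3 and numpy 2.4.6, figures matplotlib 3.10.9. Promoter sequences are from RefSeq (GRCm38.p6).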

Additional observations from a re-analysis of the deposited data

Results flagged for a closer look

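In groups of 4 KO samples, 64 groups of values were checked for a sample far from the other 3 (Dixon's test at the 95% level), and chance flags about 1 in 20. In 4 groups a sample stood apart. Chaf1b stood at 17.7 CPM in KO1 sample 1c of set 1, against 29.8 to 32.2 in the other KO samples. Dnajc9 stood at 104.5 CPM in KO2 sample 1e, against 138.3 to 143.5. Supt16 stood at 432.5 CPM in KO1 sample 1d, against 307.5 to 320.8. H1fx stood at 50.57 CPM in KO2 sample 2f of set 2, against 84.85 to 90.95.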

How the results depend on the processing

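Direction and call over both sets held for Nasp, Rbbp7, Hira, H2afx and H2afy under every alternative run, and no called gene changed sign. Of 8 genes called over both sets, 5 were called with sums per line and set, 7 with the DESeq2 Wald test and 9 without the low-count filter, and 6 to 9 with a sample left out. In set 1, 5 were called, 3 with the DESeq2 Wald test and 1 to 7 with a sample left out. In set 2, 5 were called, 3 with every library as its own sample, 1 with first libraries only, 10 with second libraries only, 1 in sub-batch A, 9 in sub-batch B and 1 to 10 with a sample left out. After retinoic acid 21 to 25 genes were called in WT and 17 to 22 in KO with a sample left out. The difference of its effect between genotypes gave 0, and 1 with untreated controls of either sub-batch alone. Leaving out a sample gave 0 in the other comparisons. The cause of the lost and added calls was not tested.

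Deviations of same-numbered samples correlated at -0.09 to 0.04 in set 1 and 0.04 in KH2. In set 2 libraries they correlated at 0.16 to 0.22 between WT and KO2, at -0.19 to -0.13 between WT and KO1 and at -0.26 to -0.08 between KO1 and KO2. The labels do not say that a number marks a batch and not every pair was over 0.1, so the numbers were not taken as pairing. With them as a replicate block, 7 genes were called over both sets (Atrx was lost, edgeR adjusted p = 0.0745), 3 in set 1, 1 in set 2 (single libraries) and 0 in KH2. In set 2 the block left H2afx and lost Nasp, Rbbp7, Hira and H1fx (edgeR adjusted p from 0.075 to 0.244).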
